A study of Mus musculus with 72 samples.

Results

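The genes of fatty acid oxidation and of PPAR alpha, the nuclear receptor that controls many of them, were followed in kidney cortex and kidney medulla of mice exposed to the beta-emitting radionuclide 177Lu. The set is a list of 33 gene symbols, and members were found by matching these symbols to the array's probe table, which names 16593 genes in all. A probe was listed for 30 of the 33, and Acsl1, Cyp4a10 and Hadha are not analysed here. A gene counted as measured when its brightest probe reached an intensity of 150, or 7.23 on the log2 scale, on all 3 arrays of at least 1 group. Vnn1 did not meet this rule in either tissue and Cpt1a did not in medulla, where it reached the floor on some arrays but not on all 3 of a group, which left 29 members among 8681 measured genes in cortex and 28 among 8682 in medulla.

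All mice were of the Balb/c strain, with no engineered allele in the labels. Kidney cortex and kidney medulla were profiled on Illumina bead arrays after absorbed doses of 0.3, 3 or 10 Gy, or without an absorbed dose (control), at 1.5, 3 and 4.5 months. Each of these 24 groups held 3 arrays. The labels name the nuclide 177Lu for the control samples as well and give those samples no dose. They say neither whether the arrays of a group came from separate animals nor the animals' age, sex or route of exposure, so the p-values may reflect technical spread between the arrays of a group and not that between mice.

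Fatty acids enter tubule cells through carriers such as CD36, are bound by FABP proteins, are joined to coenzyme A and reach the mitochondrial matrix through the carnitine shuttle, whose parts are CPT1, the carrier SLC25A20 and CPT2. In the matrix the acyl-CoA dehydrogenases, hydratases and thiolases shorten the chain step by step, and very long chains are first shortened in peroxisomes. PPAR alpha pairs with RXR on direct repeats of a hexamer with 1 base between them (DR1) and raises transcription of these enzymes during fasting. The proximal tubule depends on fatty acid oxidation for most of its energy, and Cyp4a14, a fatty acid omega-hydroxylase of mouse kidney and liver, is among the genes that respond most to PPAR alpha.

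The windows below are shown because they are the promoters of members in which a match to the DR1 letters with 2 mismatches was found. RefSeq windows of build GRCm38.p6, each 300 bases with 250 before and 50 after a transcript's start, were given for 24 of the 33 members (25 windows). Cyp4a14, Reep6, Vnn1, Hsd17b4, Acaa2, Cyp4a10, Decr1, Acat1 and Crat had none in the table. The motif AGGTCANAGGTCA was searched on both strands with up to 2 mismatches. It was present in 3 of the 25 windows, or 12%, against 3.86% of the 32851 windows of all genes. Exact DR1 letters were in 0 member windows and in 0.0396% of all windows. The exact half-site AGGTCA, the unit repeated in the motif, was in 16% of member windows and in 16.3% of all windows. Of the windows shown, only that of Cd36 holds it, outside the marked match. The windows are written from 5′ to 3′ on the gene's strand, and capitals mark the match. Cd36 (fatty acid carrier) lies at chr5:17835847-17836146 on the minus strand, and Etfa (electron transfer to the respiratory chain) at chr9:55512194-55512493 on the minus strand. Slc25a20 (acylcarnitine carrier) lies at chr9:108661886-108662185 on the plus strand.
Cd36: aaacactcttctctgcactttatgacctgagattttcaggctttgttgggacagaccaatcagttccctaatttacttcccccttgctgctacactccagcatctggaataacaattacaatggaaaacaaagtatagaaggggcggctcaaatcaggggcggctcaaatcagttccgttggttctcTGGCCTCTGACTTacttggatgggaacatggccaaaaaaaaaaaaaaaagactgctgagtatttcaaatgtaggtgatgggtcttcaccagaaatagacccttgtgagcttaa
Etfa: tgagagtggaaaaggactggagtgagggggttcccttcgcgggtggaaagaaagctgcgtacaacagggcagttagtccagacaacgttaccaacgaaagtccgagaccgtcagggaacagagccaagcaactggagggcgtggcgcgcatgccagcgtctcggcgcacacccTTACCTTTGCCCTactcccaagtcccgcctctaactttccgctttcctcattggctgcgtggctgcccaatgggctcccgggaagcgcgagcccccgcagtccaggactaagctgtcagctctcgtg
Slc25a20: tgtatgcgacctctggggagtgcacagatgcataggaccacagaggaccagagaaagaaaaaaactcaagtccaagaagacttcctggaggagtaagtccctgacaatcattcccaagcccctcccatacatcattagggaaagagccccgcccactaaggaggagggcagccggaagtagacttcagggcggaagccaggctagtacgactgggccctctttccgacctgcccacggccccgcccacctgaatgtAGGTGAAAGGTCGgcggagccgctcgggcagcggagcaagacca
The match of Cd36 and that of Etfa lie on the strand opposite to the gene, and that of Slc25a20 on the gene's own strand, just after its start. These are matches of letters, not measured binding sites.

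Before any comparison, 1 array was set aside, a cortex control at 1.5 months (replicate 3), whose mean correlation with the other cortex arrays was 0.638, against 0.963 or more for every other cortex array. This leaves 2 arrays in that group and 71 in all (35 cortex, 36 medulla). Values with the array included are given for the calls it ends. Directions that it turns are given for members called or of smallest p in a comparison, and not for every member. Thick ascending limb markers (6 genes) averaged 12.18 to 12.36 over the medulla control arrays and 11.28 to 11.76 over the cortex control arrays. Proximal tubule markers (10 of 13 measured) averaged 10.45 to 11.00 in medulla and 10.99 to 11.34 in cortex, so that their mean lay above the floor in the samples labelled medulla too. Singly they did not move alike, with 6 called lower and 3 higher in control medulla than in control cortex. How much proximal tubule the medulla samples held was not tested. In such tissue samples, fewer cells of a type and less RNA per cell cannot be told apart.

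In cortex, Cyp4a14 and Reep6 were lower after 0.3 Gy than in controls, and these were the only members to pass the test there. They did so when the 3 times were averaged, with Cyp4a14 lower by close to 0.5 log2 units and Reep6 by somewhat less. Ehhadh, Slc25a20, Acot1 and Acaa1b read below control too without passing. Across all measured genes the dose had few calls, with 9 of 8681 (0.104%) past an adjusted p of 0.05, and the members' 2 of 29 stand beside that share. In sign alone, 22 of 29 members read below 0 at this dose, against 46.9% of all genes. Cd36 is among the 22 and passed the floor through a control group alone, which favoured a reading below 0. With the array that stood apart included, 6 of 29 read below 0 at 0.3 Gy, 6 at 3 Gy and 4 at 10 Gy, and no member passed at these doses. The members that turn with it are not listed in full, and the values by role below are without that array.

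Cyp4a14 had the smallest p of all members at 0.3 Gy in cortex. Its control arrays read 13.23 and 13.38 at 1.5 months, 13.60, 13.67 and 14.23 at 3 months, and 13.84, 14.06 and 13.94 at 4.5 months, in log2 intensity. After 0.3 Gy the arrays read 12.99, 13.25 and 13.37 at 1.5 months, 13.12, 13.15 and 12.96 at 3 months, and 13.32, 13.46 and 13.21 at 4.5 months. The groups overlap at 1.5 months and are apart at the later times, where every exposed array lies below every control array. Averaged over times, Cyp4a14 fell by 0.49 ± 0.08 (SE; 95% interval -0.65 to -0.34, adjusted p = 0.00196), and 8 of 9 exposed arrays lay below the control mean of their time. The call held when any one of the 17 arrays was left out (adjusted p from 0.00105 to 0.0322). With the array that stood apart included the difference reads 0.21 (adjusted p = 0.872), and with a spread estimated from the compared groups alone the adjusted p is 0.110.

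At single times Cyp4a14 fell by 0.76 ± 0.13 at 3 months (adjusted p = 0.0149), 1 of 2 calls among all genes (0.023%). It fell by 0.62 ± 0.13 at 4.5 months (adjusted p = 0.0259), 1 of 16 calls among all genes (0.184%). At 1.5 months no gene of the array passed in limma (272 had an unadjusted p under 0.05), and the difference between times in the response to dose was tested as well: no member passed that dose by time test in cortex, where 2 of 8681 genes did (0.023%). The 3-month call was lost without control replicate 3 (-0.56, adjusted p = 0.190) or 0.3 Gy replicate 3 (-0.70, adjusted p = 0.123). At 4.5 months it held in 1 of the 6 fits with an array left out, the one without control replicate 1 (adjusted p up to 0.240 in the others). With a spread from the compared groups alone, neither call held (adjusted p = 0.649 at 3 months and 0.0847 at 4.5 months). The same is true with the array that stood apart in the fit, which leaves both differences as they are and widens the spread (adjusted p = 1.00 for each).

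**Figure D1:**
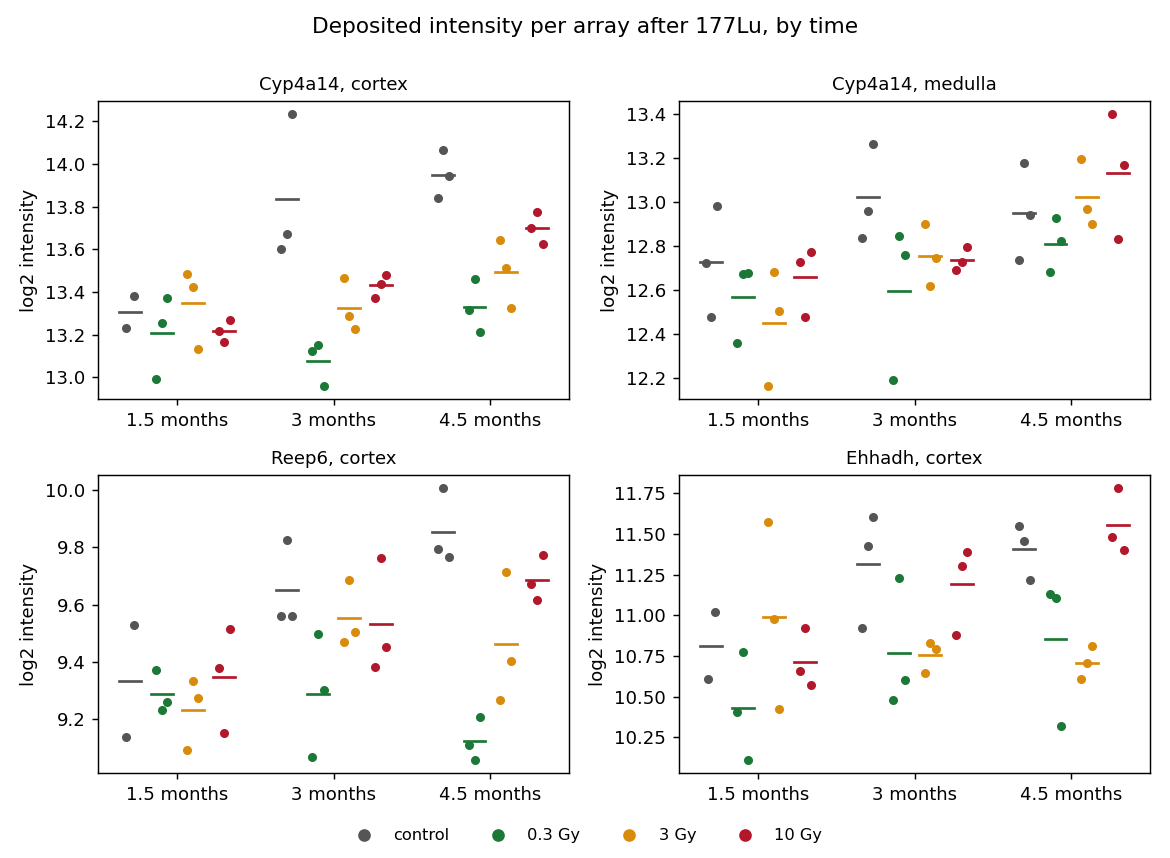
Log2 intensity of Cyp4a14 in cortex and medulla and of Reep6 and Ehhadh in cortex on each array (points) with the group mean (line), by time on the x axis and by dose in colour. Cyp4a14 in cortex reads 12.96 to 13.15 at 3 months after 0.3 Gy and 13.60 to 14.23 in its controls, and the y axes do not start at 0.

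Reep6, an endoplasmic reticulum membrane protein listed among the PPAR alpha targets, differed at 4.5 months. Its cortex controls read 9.79, 10.01 and 9.76 at that time and the 0.3 Gy arrays 9.11, 9.06 and 9.21. These groups do not overlap, whereas at 1.5 months the controls (9.14 and 9.53) enclose the exposed arrays (9.37, 9.23 and 9.26). Reep6 fell by 0.73 ± 0.13 at 4.5 months (adjusted p = 0.0138) and by 0.38 ± 0.08 over the 3 times (adjusted p = 0.0484). The averaged call is a fragile one: it held in 3 of 17 fits with an array left out (without control replicate 1 at 1.5 months, control replicate 3 at 4.5 months or 0.3 Gy replicate 2 at 3 months) and the adjusted p otherwise rose to 0.383. The 4.5-month call was lost without control replicate 2 (adjusted p = 0.124), 0.3 Gy replicate 2 (0.0736) or 0.3 Gy replicate 3 (0.0777), with only the compared groups (0.0634) and with the array that stood apart (0.703). A second Reep6 probe, which averages 7.39 in cortex and so lies near the floor, read 0.03 over the 3 times, and the mean of both probes gave -0.17 over the 3 times (adjusted p = 0.534) and -0.30 at 4.5 months (adjusted p = 0.418). With the array that stood apart the averaged difference was -0.19 (adjusted p = 0.635), and with only the compared groups the adjusted p was 0.168.

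The peroxisomal members gave a mixed reading at 0.3 Gy in cortex, with 3 of 4 below 0 and none past the test. Ehhadh, the bifunctional enzyme of the peroxisomal pathway, read 10.61 to 11.61 over the control arrays (median 11.32) and 10.11 to 11.23 after 0.3 Gy (median 10.60). These ranges overlap, although 9 of 9 exposed arrays lay below the control mean of their time. Its difference was -0.50 ± 0.15 (adjusted p = 0.234). Acaa1b, the peroxisomal thiolase, differed by -0.32 ± 0.12 (adjusted p = 0.438, 8 of 9 arrays below) and Pex11a, a peroxisome division factor, by -0.13 ± 0.08. Hsd17b4, the other bifunctional enzyme of the organelle, stood at 0.03 ± 0.06.

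Entry and transport genes read below control in 7 of 7 cases at 0.3 Gy, again with none past the test, but Cd36 is among them and passed the floor through a control group alone. Slc25a20 was the largest of these at -0.28 ± 0.09 (adjusted p = 0.260, 8 of 9 arrays below). Of its dimmer probes, the one that reached the floor gave -0.12 and the one that did not gave -0.03. Cpt1a, the enzyme that loads long chains onto carnitine, gave -0.21 ± 0.08 (adjusted p = 0.416), but its arrays lie near the floor, with 7 of 8 control arrays and 3 of 9 exposed arrays at or above it. Cd36 was at or above the floor on 3 of 8 control arrays and on 0 of 9 exposed arrays. Fabp3, Acsm3, Cpt2 and Crat ranged from -0.13 to -0.04.

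The mitochondrial enzymes of the chain-shortening cycle stayed close to control. Of 12 measured, 8 read below 0 at 0.3 Gy and 4 above, with a median of -0.070 and a range from -0.21 (Acadm, medium-chain dehydrogenase, adjusted p = 0.540) to 0.10 (Etfb, electron transfer flavoprotein). Acot1, a cytosolic thioesterase that releases free fatty acids, read -0.29 ± 0.10 (adjusted p = 0.380), and its second, dimmer probe gave -0.51. The mitochondrial relative Acot2 read 0.10 ± 0.13. These genes are close copies, as are Acaa1a and Acaa1b, and cross-hybridisation between their probes was not tested. The regulators Ppara and Ppargc1a (a coactivator) stood at -0.12 ± 0.13 and 0.07 ± 0.07.

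At 3 Gy in cortex 0 of 29 members passed in limma's test, where 19 of 8681 genes did (0.219%). Its unadjusted p was under 0.05 for 7 members and for 1183 of all genes. Cyp4a14 arrays read 13.13 to 13.64 (median 13.42) against 13.23 to 14.23 in controls (median 13.76), and its difference was -0.31 ± 0.08 (adjusted p = 0.0811, 7 of 9 arrays below). This passed with array weights (-0.28, adjusted p = 0.0272) and without control replicate 1 at 3 months (-0.35, adjusted p = 0.0366), and it turned to 0.39 (adjusted p = 0.655) with the array that stood apart. Cpt1a read -0.21 ± 0.08 (adjusted p = 0.260) with 9 of 9 arrays below, Acot1 -0.25 ± 0.10 (adjusted p = 0.302, turned to 0.13 with that array) and Ehhadh -0.36 ± 0.15 (adjusted p = 0.305). With that array 6 of 29 members read below 0 at 3 Gy, and the value of Ehhadh with it is not given here. Etfb, at 0.19 ± 0.08 (adjusted p = 0.325), and Acaa2, the mitochondrial thiolase, at 0.21 ± 0.13 (adjusted p = 0.482), read above control.

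At 10 Gy in cortex, the highest dose, 0 of 29 members passed in limma's test, where 2 of 8681 genes did (0.023%). Its unadjusted p was under 0.05 for 2 members and for 346 of all genes. Cyp4a14 read 13.16 to 13.77 (median 13.44), with 9 of 9 arrays below the control mean of their time and a difference of -0.25 ± 0.08 (adjusted p = 0.999), which turned to 0.45 with the array that stood apart. Acadm followed at -0.20 ± 0.09 (0.16 with that array) and Crat, carnitine acetyltransferase, at -0.18 ± 0.09. Ehhadh was at -0.03 ± 0.15 and Reep6 at -0.09 ± 0.08. With that array 4 of 29 members read below 0 at 10 Gy, and the values of Ehhadh and Reep6 with it are not given here. At single times 0 members passed after 3 Gy in limma, where 1, 4 and 3 genes did at 1.5, 3 and 4.5 months (0.0115%, 0.0461% and 0.0346%), and after 10 Gy no gene did (289, 292 and 377 had an unadjusted p under 0.05).

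The 3 doses share the same control arrays, so their differences are given side by side. Beside the 22 of 29 members below 0 at 0.3 Gy, 20 lay below 0 at 3 Gy and 21 at 10 Gy, and the medians were -0.098, -0.086 and -0.044. Cd36, which passed the floor through a control group alone, is counted below 0 at 0.3 and 3 Gy. Over all measured genes 46.1% at 3 Gy and 50.5% at 10 Gy lay below 0, and the medians at the 3 doses were 0.0063, 0.010 and -0.0012. With all doses pooled against control, Cyp4a14 fell by 0.35 ± 0.06 (adjusted p = 0.0170), with 24 of 27 exposed arrays below the control mean of their time, and it was 1 of 3 genes called (0.0346%). That call was lost without control replicate 2 at 1.5 months (-0.32, adjusted p = 0.267) or control replicate 2 at 4.5 months (-0.33, adjusted p = 0.0916), and the difference read 0.35 (adjusted p = 0.650) with the array that stood apart.

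The direct comparison of 10 with 0.3 Gy uses no control. In cortex 4 of 8681 genes passed (0.0461%) and 0 members did in limma's test. Its unadjusted p was under 0.05 for 7 members and for 569 of all genes. Reep6 (0.29 ± 0.08, adjusted p = 0.369), Cyp4a14 (0.24 ± 0.07, adjusted p = 0.472) and Ehhadh (0.47 ± 0.14, adjusted p = 0.472) read higher at 10 Gy. No order between the doses was therefore established for any member.

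**Figure D2:**
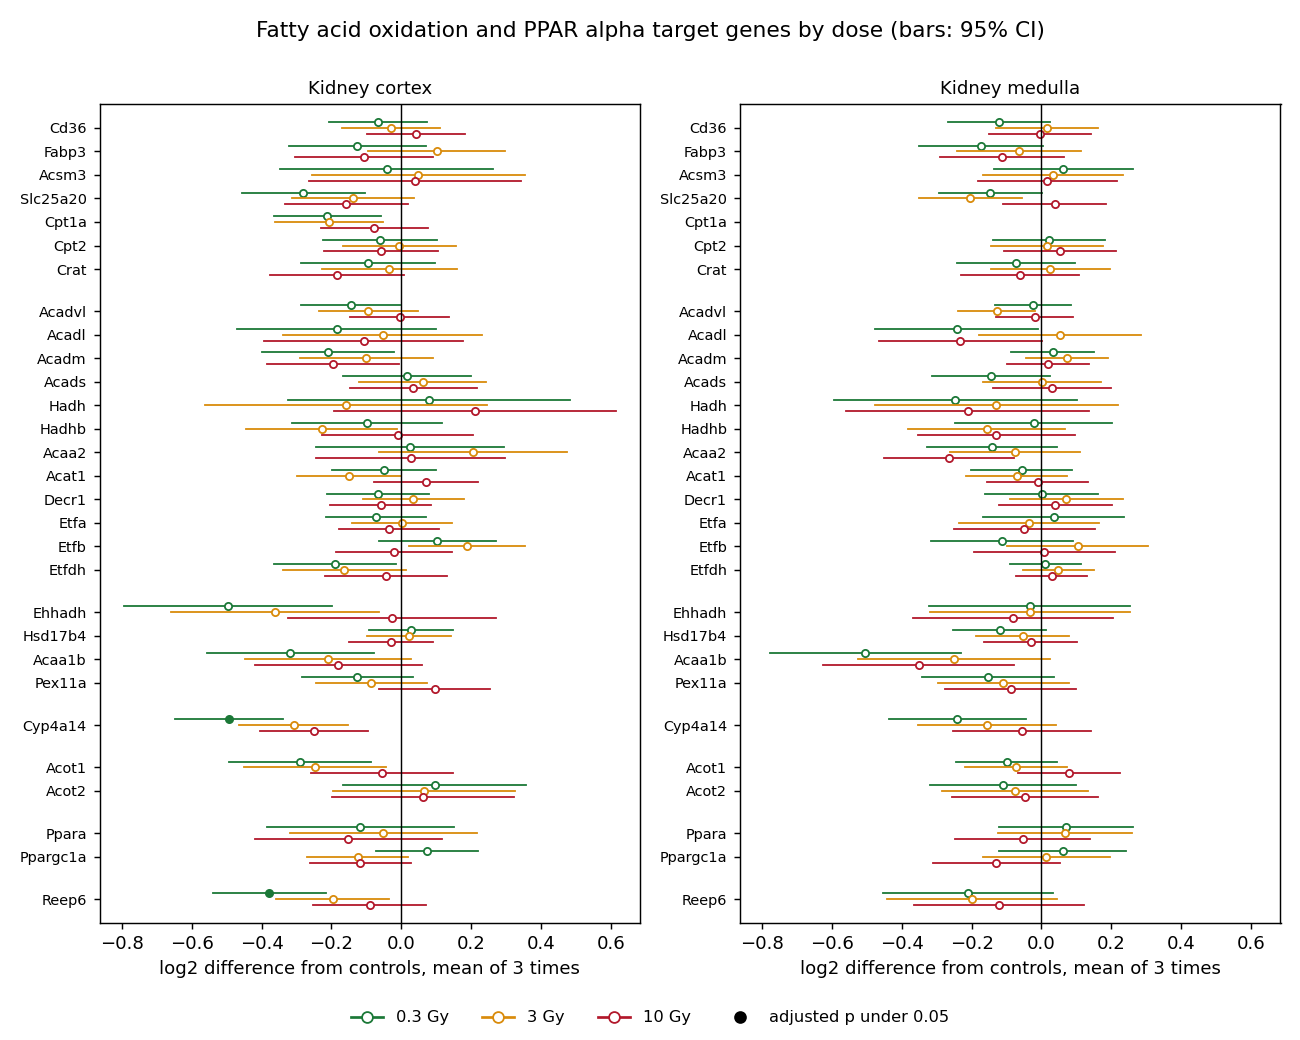
Log2 difference from control, averaged over 3 times, for each measured member (rows, grouped by role) at 0.3, 3 and 10 Gy (colours) in cortex (left) and medulla (right), with 95% confidence intervals as bars. Filled points have an adjusted p under 0.05, which holds for Cyp4a14 and Reep6 at 0.3 Gy in cortex, and Cpt1a is missing in medulla because it did not reach the floor on all 3 arrays of a group there.

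None of the markers of other cells passed the test in cortex at 0.3 Gy averaged over times. Proximal tubule markers averaged 10.99 to 11.34 over control arrays and 11.07 to 11.40 after 0.3 Gy, and 7 of 10 read above 0 with a median of 0.05. Adipocyte markers read below 0 in 7 of 7 cases, with a median difference of -0.41. Their mean level was 7.57 to 9.79 in controls and 7.08 to 9.63 after 0.3 Gy, and at single times they read above control in 7 of 7 cases at 3 months (median 0.86) and below it in 7 of 7 at 4.5 months (median -1.57, 6 at an unadjusted p under 0.05). The remaining 4 adipocyte markers (Cfd, Plin1, Retn and Ucp1) were not measured above the floor. Erythroid and blood markers read above 0 in 4 of 4 cases with a median of 0.39, at 9.87 to 10.97 in controls and 10.49 to 11.25 after 0.3 Gy. At 4.5 months macrophage markers read below 0 in 6 of 6 cases (median -0.24) and 1 of 4 intercalated cell markers, Foxi1, was higher (0.62 ± 0.13, adjusted p = 0.0259). The part of these cell types in the members' differences was not tested.

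Other genes of fatty acid metabolism, a list of 90 without the members, gave 0 calls among 72 measured at 0.3 Gy in cortex in limma's test. Its unadjusted p was under 0.05 for 12 of them and for 717 of all genes. Of the 72, 50 read below 0 and 22 above, with a median of -0.056. Pdk4, a kinase that turns cells from glucose to fat oxidation, read -0.74 ± 0.22 at 0.3 Gy (adjusted p = 0.256) and -0.61 ± 0.22 at 3 Gy (adjusted p = 0.257). Angptl4, a secreted inhibitor of lipoprotein lipase, read -0.31 ± 0.19 (adjusted p = 0.712) and -0.28 ± 0.19 (adjusted p = 0.509). Both are PPAR alpha targets in mouse tissues.

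In medulla no member passed the test at any dose or time. Of 28 measured members, 0 were called at 0.3 Gy, where 2 of 8682 genes passed (0.023%), 0 at 3 Gy, where 6 passed (0.0691%), and 0 at 10 Gy, where 1 passed (0.0115%), all with limma. Unadjusted p-values under 0.05 were seen for 3, 2 and 2 members, and for 713, 485 and 392 of all 8682 genes. At single times genes passed at 3 and 4.5 months after 0.3 Gy (5 and 6 of all genes, 0.0576% and 0.0691%), at 3 and 4.5 months after 3 Gy (4 and 1, 0.0461% and 0.0115%) and at 4.5 months after 10 Gy (1, 0.0115%), with 0 members among them. Members below 0 numbered 20, 16 and 19 of 28, with medians of -0.106, -0.045 and -0.048, against 46.1%, 49% and 46.4% of all genes.

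The peroxisomal thiolase Acaa1b was the member that stood farthest from control in medulla. Its control arrays read 12.50, 12.48 and 13.07 at 1.5 months, 12.52, 13.02 and 12.57 at 3 months, and 12.76, 13.13 and 12.51 at 4.5 months. After 0.3 Gy they read 12.14, 12.05 and 12.39 at 1.5 months, 12.02, 12.54 and 11.59 at 3 months, and 12.06, 12.63 and 12.57 at 4.5 months. At 1.5 months the groups do not overlap, and at the later times they do. The averaged difference was -0.50 ± 0.13 (adjusted p = 0.163), with 9 of 9 arrays below the control mean of their time, and it passed with array weights (-0.51, adjusted p = 0.0401). Acaa1b read -0.25 ± 0.13 at 3 Gy (adjusted p = 0.921), -0.35 ± 0.13 at 10 Gy (adjusted p = 0.937) and -0.37 ± 0.11 with the doses pooled (adjusted p = 0.387). In that pooled comparison 5 of 8682 genes passed (0.0576%).

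Cyp4a14 in medulla read 12.48 to 13.27 in controls (median 12.94) and 12.19 to 12.93 after 0.3 Gy (median 12.68). These ranges overlap widely, and the difference was -0.24 ± 0.10 (adjusted p = 0.478), with 9 of 9 arrays below the control mean of their time. It was -0.16 ± 0.10 at 3 Gy and -0.06 ± 0.10 at 10 Gy. Acadl, the long-chain dehydrogenase, stood at -0.24 ± 0.11 at 0.3 Gy (adjusted p = 0.571) and -0.23 ± 0.11 at 10 Gy. Slc25a20 stood at -0.20 ± 0.07 at 3 Gy (adjusted p = 0.621) and Acaa2 at -0.27 ± 0.09 at 10 Gy (adjusted p = 0.931). No gene passed the dose by time test in medulla or the comparison of 10 with 0.3 Gy there in limma (0% each), with 508 and 613 genes at an unadjusted p under 0.05. Of the other pathway genes, 71 were measured in medulla and 0 passed at any dose with limma. Its unadjusted p was below 0.05 for 6, 6 and 2 of them, and for 713, 485 and 392 of all genes.

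Whether the response to dose differed between medulla and cortex was tested directly. No gene of 9007 passed at any dose (0%) in limma, although 518, 231 and 363 genes had an unadjusted p below 0.05 at 0.3, 3 and 10 Gy. The members with the smallest p at 0.3 Gy were Acadm, with a medulla minus cortex difference in response of 0.24 ± 0.11 (adjusted p = 0.860), Ehhadh with 0.46 ± 0.21 (adjusted p = 0.860) and Etfdh, which passes electrons on to ubiquinone, with 0.20 ± 0.10 (adjusted p = 0.864). Acadm turned to -0.11 and Etfdh to -0.044 with the array that stood apart. The pass of Cyp4a14 in cortex and not in medulla is thus not shown to be a difference between the tissues.

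Unexposed cortex itself varied over time. Pex11a, which was low at 1.5 months (10.59 and 10.65), read 11.31, 11.19 and 11.32 at 3 months and 10.60, 10.90 and 10.54 at 4.5 months. The control arrays at 3 months lie above all other control arrays of cortex. Pex11a rose by 0.66 ± 0.14 between 1.5 and 3 months (adjusted p = 0.0349) and was the only member called, among 25 of 8681 genes (0.288%). The call was lost in each of 5 fits with a control array left out (0.63 to 0.70, adjusted p from 0.0538 to 0.736), and with the array that stood apart it read 1.63 (adjusted p = 0.0540). Its probes of lower signal gave 0.51 and 0.66.

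Slc25a20 in control cortex read 10.85 and 11.33 at 1.5 months, 11.71, 11.72 and 11.87 at 3 months and 11.31, 11.54 and 11.19 at 4.5 months. It too was highest at 3 months, by 0.68 ± 0.16 over 1.5 months, without passing (adjusted p = 0.0654). It passed without control replicate 2 at 1.5 months (0.92, adjusted p = 0.0247), with array weights (0.67, adjusted p = 0.0302) and with the array that stood apart (1.20, adjusted p = 0.0236). Of its dimmer probes, the one that reached the floor gave 0.29 and the one that did not gave 0.09. Cyp4a14 differed by 0.53 ± 0.14 between 1.5 and 3 months (adjusted p = 0.111) and passed without control replicate 1 at 3 months (0.64, adjusted p = 0.0359). Acot1 differed by 0.56 ± 0.18 (adjusted p = 0.304).

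Among the other pathway genes 2 passed at 3 months, and both rose by more than any member. Angptl4 rose by 2.44 ± 0.35 (adjusted p = 0.000371) and Pdk4 by 2.16 ± 0.41 (adjusted p = 0.0114) in control cortex. In control medulla the same pair passed, with Angptl4 up by 2.23 ± 0.33 (adjusted p = 0.000333) and Pdk4 by 1.61 ± 0.31 (adjusted p = 0.00663). There 50 of 8682 genes passed (0.576%) and 0 members did with limma, with Pex11a at 0.49 ± 0.16 (adjusted p = 0.202). The unadjusted p was under 0.05 for 6 members and for 1117 of all genes.

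In the 0.3 Gy cortex at 3 months, Acot1 and Pex11a had the smallest p of the members after Cyp4a14. After 0.3 Gy Pex11a read 10.72, 10.71 and 10.78, a difference of -0.54 ± 0.13 from control (adjusted p = 0.158), and Acot1 read 11.94, 12.24 and 11.92 against 12.73, 12.83 and 12.95, or -0.80 ± 0.17 (adjusted p = 0.0786). Both sets of arrays lie wholly below their controls at 3 months. At 1.5 months the exposed means of both genes lie above the control means, and at 10 Gy and 3 months Pex11a read 11.32, 11.21 and 11.39, alongside its controls.

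Between 1.5 and 4.5 months no member passed in control cortex in limma's test, where 1 of 8681 genes did (0.0115%). Its unadjusted p was under 0.05 for 6 members and for 803 of all genes. Cyp4a14 differed by 0.64 ± 0.14 (adjusted p = 0.146), Reep6 by 0.52 ± 0.15 (adjusted p = 0.252) and Ppara by -0.62 ± 0.24 (adjusted p = 0.405). Adipocyte markers read above 0 in 7 of 7 cases in that comparison, with a median of 1.14. Macrophage markers did so in 6 of 6 (median 0.64, 5 at an unadjusted p under 0.05), and 1 of them, Adgre1, was the gene called (0.93 ± 0.16, adjusted p = 0.0247). Their part in these differences was not tested.

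**Figure D3:**
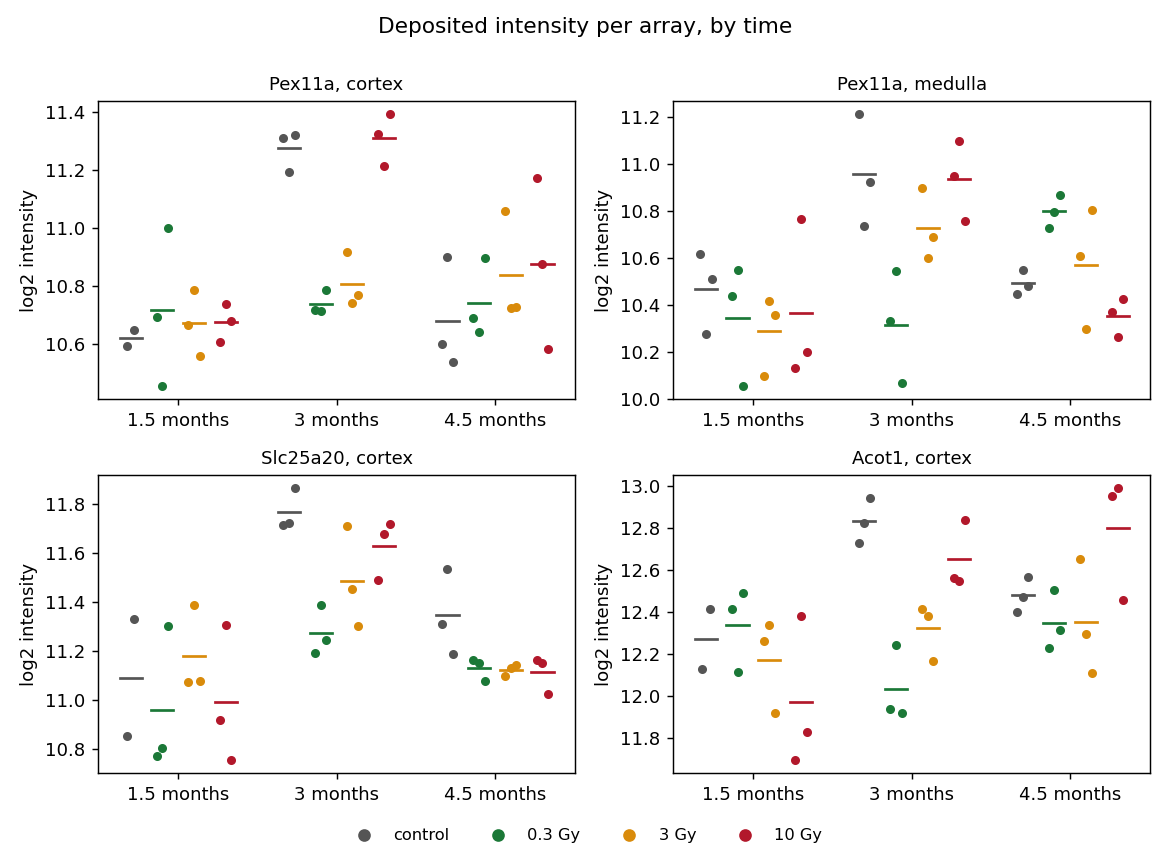
Log2 intensity of Pex11a in cortex and medulla and of Slc25a20 and Acot1 in cortex on each array (points) with the group mean (line), by time on the x axis and by dose in colour. Pex11a in control cortex stands at 11.19 to 11.32 at 3 months and at 10.54 to 10.90 at the other times, and the y axes do not start at 0.

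Members differed more often between the tissues than with dose or time. In control mice 16 of 29 members differed between medulla and cortex, 12 lower and 4 higher in medulla, where 3369 of 9007 measured genes (37.4%) differed at all, 1681 lower (18.7%) and 1688 higher (18.7%). The members' median difference was -0.110 and that of all genes -0.013. With the array that stood apart included, 7 members passed (Acadm, Acot1, Acsm3, Cpt1a, Fabp3, Ppara and Reep6). Calls lost with it were those of Cyp4a14, Acaa2 (-0.30, adjusted p = 0.295), Hsd17b4 (-0.042, adjusted p = 0.839), Etfdh (-0.013, adjusted p = 0.956), Acat1 (-0.15, adjusted p = 0.241), Crat (-0.15, adjusted p = 0.310) and Cd36 (0.17, adjusted p = 0.101). Among the called members, the direction turned for Acaa1b (0.16, adjusted p = 0.770), Pex11a (0.11, adjusted p = 0.703) and Acads (0.013, adjusted p = 0.958). Of the other pathway genes, 30 of 74 were lower in medulla and 7 higher.

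Cyp4a14 was lower in medulla, with control arrays at 12.48 to 13.27 (median 12.94) against 13.23 to 14.23 in cortex (median 13.76), by -0.80 ± 0.09 (adjusted p = 2.43e-10). The ranges overlap only between 13.23 and 13.27. With the array that stood apart included, the difference shrank to -0.10 (adjusted p = 0.865). Among entry and transport genes, Acsm3, a mitochondrial medium-chain acyl-CoA synthetase, showed the largest drop of the set, -1.06 ± 0.13 (adjusted p = 2.16e-09), from 7.77 to 9.09 in cortex to 7.04 to 7.83 in medulla. Its other probes, neither of which reached the floor, gave 0.03 and -0.21. The medulla arrays of the probe used lie at the floor, with 7 of 9 at or above it. Fabp3, a cytosolic fatty acid carrier, went the other way, at 11.53 to 11.91 in medulla and 10.75 to 11.28 in cortex with no overlap (0.69 ± 0.10, adjusted p = 3.19e-08).

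Crat was lower in medulla by -0.28 ± 0.09 (adjusted p = 0.0128), a call lost with the mean of all its probes (adjusted p = 0.109). Cpt1a, which passed the floor through cortex alone and was so favoured to read lower in medulla, stood at -0.20 ± 0.07 (adjusted p = 0.0229), and its call lends the count above no support. Cd36 was higher by 0.24 ± 0.07 (adjusted p = 0.00699), and both lie near the floor in the 2 tissues. The Cpt1a call was lost without control replicate 2 at 1.5 months (adjusted p = 0.0851) or at 3 months (0.0561) in cortex, or without control replicate 2 at 3 months in medulla (0.0541). The Cd36 call was lost without control replicate 1 at 1.5 months in cortex (adjusted p = 0.0585).

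Within the mitochondrial cycle the dehydrogenases did not move alike. Acadm, for medium chains, was higher in medulla by 0.37 ± 0.08 (adjusted p = 0.000118), with 14.29 to 14.66 there and 13.77 to 14.44 in cortex, among the brightest readings of the set. On 7 of 36 medulla arrays, 1 of them a control, this probe held the highest value that the normalised scale gives (14.66), so readings there have a ceiling. Its second, dimmer probe gave 0.81 for the same contrast. Acads, for short chains, was lower by -0.22 ± 0.09 (adjusted p = 0.0487), a call that held in 6 of 17 fits with an array left out (adjusted p from 0.00779 to 0.161). Acadvl and Acadl, for very long and long chains, did not pass.

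The thiolase Acaa2 was lower in medulla by -0.64 ± 0.12 (adjusted p = 1.17e-05), and its other 3 probes gave -0.72, -0.72 and -0.82. Acat1, the acetoacetyl-CoA thiolase of ketone metabolism, was lower by -0.27 ± 0.07 (adjusted p = 0.00267) and Etfdh by -0.26 ± 0.07 (adjusted p = 0.00255), a call lost with the mean of its probes (adjusted p = 0.0968). In peroxisomes Acaa1b was lower by -0.52 ± 0.13 (adjusted p = 0.00135), Hsd17b4 by -0.27 ± 0.06 (adjusted p = 0.000407) and Pex11a by -0.22 ± 0.09 (adjusted p = 0.0459). The Pex11a call held in 7 of 17 fits with an array left out (adjusted p from 0.0186 to 0.117), and its other 2 probes gave -0.40 and -0.41. Ehhadh, at 0.17 ± 0.15, did not pass.

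The thioesterase Acot1 was higher in medulla by 0.38 ± 0.09 (adjusted p = 0.000488), at 12.66 to 13.11 against 12.13 to 12.95, whereas Acot2 stood at -0.0042 ± 0.12. A second, dimmer Acot1 probe gave 0.17 for the same contrast. Ppara, the receptor itself, was lower by -0.60 ± 0.12 (adjusted p = 4.02e-05), with 7.37 to 8.22 in medulla and 7.46 to 8.95 in cortex, ranges that overlap widely. Its coactivator Ppargc1a stood at 0.08 ± 0.08 and did not pass. The 13 members that did not pass ranged from -0.27 (Hadh) to 0.21 (Reep6), and a second Hadh probe of similar signal gave -0.59.

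Proximal tubule markers gave a median of -0.67 in the same contrast, with 6 of 10 lower and 3 higher in medulla, and thick ascending limb markers a median of 0.63, with 3 of 6 higher. Adipocyte markers read below 0 in 7 of 7 cases (median -0.91) with 4 called lower, and distal convoluted tubule markers were lower in 3 of 3 (median -1.46). Macrophage markers were called higher in 6 of 6 cases (median 0.60) and endothelial markers in 3 of 6. The part of these cell types in the members' tissue differences was not tested. Among the other pathway genes, the ketone enzyme Bdh1 (1.81 ± 0.14, adjusted p = 3.09e-15) and Cpt1b, the muscle form of CPT1 (0.99 ± 0.08, adjusted p = 3.70e-14), were higher in medulla. Acsm2 (-1.22 ± 0.26, adjusted p = 0.000176), Cyp4b1 (-1.20 ± 0.17, adjusted p = 3.66e-08) and Cyp4a12a (-1.06 ± 0.22, adjusted p = 0.000105), an acyl-CoA synthetase and a pair of cytochromes P450, were lower, as was Acaca (-0.98 ± 0.25, adjusted p = 0.00128), an acetyl-CoA carboxylase of fatty acid synthesis. Pdk4 and Angptl4 stood at -0.10 ± 0.21 and -0.04 ± 0.20.

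**Figure D4:**
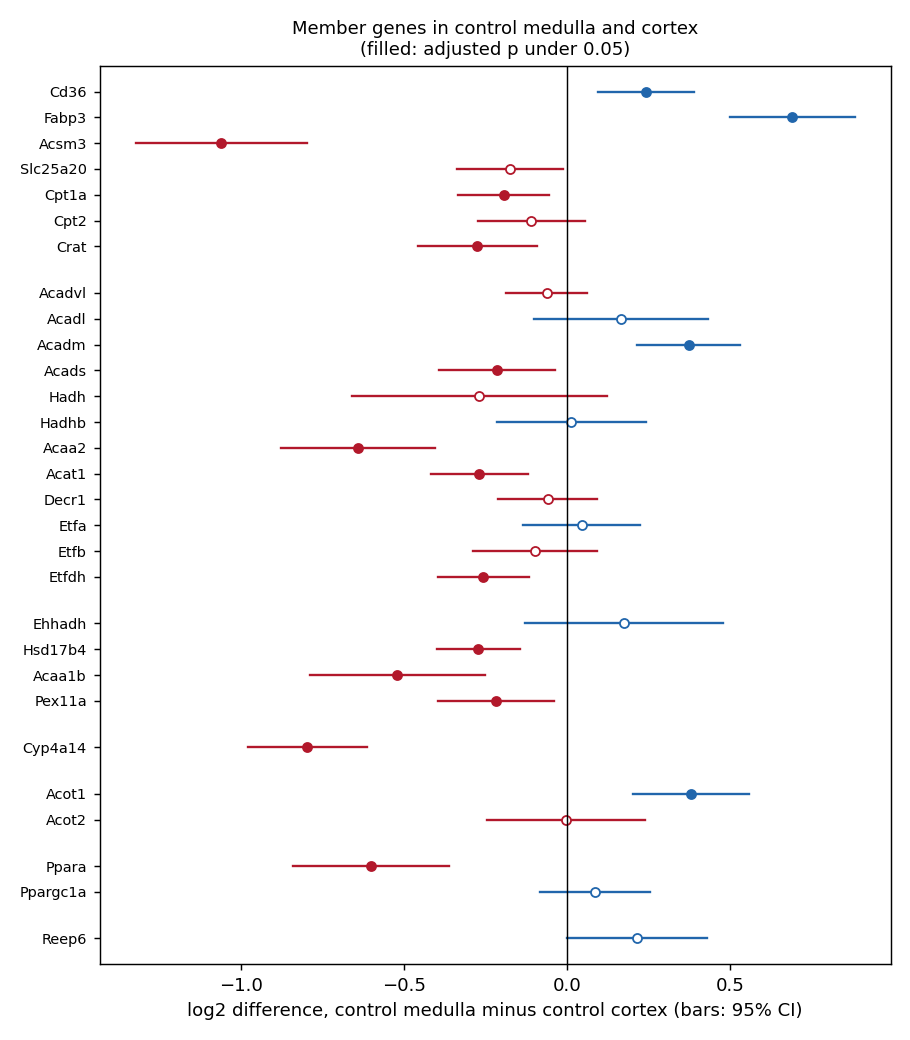
Log2 difference between control medulla and control cortex for each of the 29 measured members (rows, grouped by role), averaged over 3 times, with 95% confidence intervals as bars and filled points for an adjusted p under 0.05. Acsm3 lies lowest at -1.06 and Fabp3 highest at 0.69.

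Members also differed in how much their arrays scattered. The residual spread within groups was widest for Hadh, a hydroxyacyl-CoA dehydrogenase, with an SD of 0.44 in cortex and 0.39 in medulla, above 97.2% and 96.6% of all genes. Acsm3 (0.33) and Ehhadh (0.32) came next in cortex, and Ehhadh (0.32) in medulla. The tightest were Hsd17b4 in cortex (0.12) and Etfdh in medulla (0.092), and the median over all genes was 0.15 in each tissue.

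Cyp4a14 varied together with 8 of 28 members in cortex and 6 of 27 in medulla at an adjusted permutation p under 0.05. The share of all measured genes that do so was not computed, so these counts are not shown to be particular to the set. The permutations moved arrays freely across dose and time groups, so differences between groups enter these p-values. Those of cortex were Acaa1b, Acadvl, Acot1, Cpt1a, Ehhadh, Etfdh, Reep6 and Slc25a20, each with a positive r. Over the 35 cortex arrays its level correlated with that of Ehhadh (Pearson's r = 0.69, Spearman's rho = 0.72, permutation p = 2e-05 for each) and of Acot1 (r = 0.68, rho = 0.75, permutation p = 1e-05 for each, the smallest these permutations can give). Adjusted over the 55 relations computed, the p-values of r were 0.00055 for both genes. Without the 2 arrays farthest from the median of Cyp4a14, r was 0.65 and 0.69, and between deviations from the group means it was 0.43 and 0.47. Reep6 gave r = 0.61 (rho = 0.60, permutation p = 0.00011 and 0.00022, adjusted p = 0.00151 for r) over all cortex arrays and -0.10 between deviations from the group means, so that this relation did not hold within groups. Cpt1a (0.50) and Etfdh (0.46) fell to 0.17 and 0.15 between such deviations. Acaa1b, Acadvl and Slc25a20 gave 0.37, 0.41 and 0.44 there. In medulla, over 36 arrays, Acaa1b was the member most like Cyp4a14 (r = 0.62, rho = 0.70, permutation p = 7e-05 and 2e-05, adjusted p = 0.00128 for r, and 0.46 within groups). Reep6 followed there (r = 0.55, 0.43 within groups), with Hsd17b4, Etfdh and Ehhadh, and Ppargc1a ran the other way (r = -0.43, -0.47 within groups). Arrays share their normalisation and their groups, and these values describe likeness of pattern only.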

How the data were processed

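Total RNA of fresh-frozen kidney cortex and medulla was hybridised to Illumina mouse arrays, 72 in all, per the labels. The authors deposited linear intensity values, 1 column per sample, and their software is not given in the sources used here. The deposited intensity columns have nearly the same distribution on every array (medians 143 to 144), as quantile normalisation leaves it. A second deposited table of unnormalised values, 144 columns that could not be matched to samples, was not used.

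Intensities were taken to log2. Of 25697 probes, 23978 carry 1 gene symbol, 0 several and 1719 none. For each gene the brightest probe over the 71 arrays was used, if it reached 150 on all 3 arrays of a group. Group means were fitted per tissue with limma 3.58.1 in R 4.3.3 (lmFit and eBayes with a trend, two-sided), tissues together for comparisons between them, with Benjamini-Hochberg adjustment over all measured genes and a threshold of 0.05, over 38 comparisons. Differences averaged over times weigh the 3 times equally, and SE is the fit's. Correlations used 100000 permutations in Python 3.11.15.

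The members and gene lists were chosen with earlier results of these data known. All members could be named; other pathway genes were named if past the threshold, up to 6 by size, and Pdk4 and Angptl4 always. Some genes that the same rule names are not reported here. The fitting code was tested on simulated data. The number of arrays limits the precision. Alternatives tried were the array that stood apart, the floor, the probe rule, array weights, cyclic loess, normexp with an offset of 50, no trend, only the compared groups, a replicate block and leaving out each array.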

Additional observations from a re-analysis of the deposited data

Results flagged for a closer look

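Cd36 drew attention through the array outside the comparisons, the cortex control at 1.5 months (replicate 3) that stood apart from the rest. There Cd36 read 7.62 in log2 intensity, above the 6.83 to 7.32 of the 8 other cortex control arrays and the highest value of any cortex array, the next being 7.59.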

How the results depend on the processing

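Over 38 comparisons and their alternatives, 863 of 914 member counts stayed equal to, or within 1.5 times of, the reported one, and 51 did not. Most of these comparisons had no member called in the reported fit, which raises that share. By the same rule, the count at 0.3 Gy in cortex averaged over times stayed in 9 of 27 alternatives. The count between tissues stayed in 27 of 28. With the array that stood apart, 0 members were called in cortex at 0.3 Gy averaged over times, at 3 months and at 4.5 months, 0 with all doses pooled, and 7 between tissues in place of 16. Directions were followed only for members called or, in comparisons averaged over times, of smallest p, so other members that turned are not listed. Among those followed, directions turned with that array for Cyp4a14 at 0.3 Gy (0.21), 3 Gy (0.39), 10 Gy (0.45) and all doses (0.35), for Acot1 at 3 Gy (0.13) and Acadm at 10 Gy (0.16) in cortex. Between tissues they turned for Acaa1b (0.16), Pex11a (0.11) and Acads (0.013), and in the difference in response for Acadm (-0.11 at 0.3 Gy, -0.14 at 10 Gy) and Etfdh (-0.044 at 0.3 Gy, -0.034 at 3 Gy). Without a floor, 1 member was called in cortex at 0.3 Gy and 0 between control times (3 minus 1.5 months). With the mean of all probes, the counts were 1 at 0.3 Gy, 1 at 0.3 Gy and 4.5 months, and 0 between control times. With only the compared groups in the fit they were 0 at 0.3 Gy, averaged and at 3 and 4.5 months, and 0 between control times, with fewer arrays behind the spread. Array weights, which did not converge in 2 fits, gave 1 at 3 Gy, 2 at 3 Gy and 3 months, 1 at 3 Gy and 4.5 months and 2 between control times in cortex, and 1 in medulla at 0.3 Gy, at 0.3 Gy and 1.5 months, and at 3 Gy and 3 months. A floor of 200, cyclic loess, normexp and no trend moved no count by over 1.5 times. Leaving out 1 array at a time gave 1 to 2 members at 0.3 Gy, 0 to 2 at 0.3 Gy and 3 months, 0 to 2 at 0.3 Gy and 4.5 months, 0 to 1 at 3 Gy, 0 to 1 at 3 Gy and 3 months, 0 to 1 with all doses pooled, 0 to 1 between control times and 13 to 16 between tissues. Acot1 joined Cyp4a14 without 0.3 Gy replicate 2 at 3 months. Where no value shows it, the cause was not tested. Whether arrays of the same number share an animal is not in the labels, and the numbers were not taken as pairs because not every pair was alike: 22 of 35 pairs of cortex and medulla arrays with the same number had deviations correlated above 0.1 (-0.43 to 0.65), with all 3 pairs above it in 4 of 11 conditions and times. With the number as a replicate block, 0 members were called between control times in cortex in place of 1, and no other count of members moved by over 1.5 times. Between tissues this replicate block gave 13 members in place of 16, without Cpt1a (adjusted p = 0.167), Pex11a (0.102) and Acads (0.0610), and a replicate block of tissue pairs gave 15, without Pex11a (0.0539).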

Other observations

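On the same cortex control array the rest of the set read low. Of 29 measured members, 27 were lower there than on every other cortex array, the exceptions being Cd36 and Cpt1a (7.22, within the range of the other arrays). The same count was not made over all genes, so it is not shown to be particular to this set. Cyp4a14 read 7.02 on it and Acaa1b 6.92, both under the floor of 7.23, where the other cortex arrays read 12.96 to 14.23 and 12.43 to 13.57. Fabp3 read 6.89 against 10.48 to 11.61. The members' median difference from the other cortex controls was -1.99 and that of all genes -0.024.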
